A study of Mus musculus with 7 samples.

Results

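Mature oligodendrocytes of the mouse striatum are described here in a mouse model of Huntington's disease. The class comprised the nuclei that the study's own annotation names oligodendrocytes, 468 of 4524 nuclei, and no expression value of this work entered the choice. Single-nucleus RNA sequencing of the striatum, the forebrain region most affected in the disease, was compared between 3 wild-type (WT) mice and 4 HttQ175/+ mice, which carry 1 Htt allele with a long expanded CAG repeat knocked into the mouse gene and 1 normal allele. All 7 mice were male C57BL6/J. The WT mice and HttQ175/+ replicates 2, 3 and 4 were 14 months old, and HttQ175/+ replicate 1 was 15 months old. The WT mice gave 35, 32 and 54 oligodendrocyte nuclei, and the HttQ175/+ mice gave 73, 108, 57 and 109. A nucleus held between 1131 and 5632 unique molecular identifiers (UMIs, each counting 1 captured RNA molecule), and the oligodendrocyte nuclei of 1 mouse held 77673 to 260976 in all. The labels give 1 library for each mouse and no batch.

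Oligodendrocytes wrap axons in myelin, a multilayered membrane rich in lipids and in a few abundant proteins that compact it. The cells also hold much of the brain's iron, which lipid synthesis needs, feed metabolites to the axons they wrap, and, in some regions, take up and convert glutamate. Mature oligodendrocytes are not uniform: genes such as Opalin, Ptgds and Klk6 mark different mature subtypes. Changes of oligodendrocytes and of white matter have been described in Huntington's disease and in its mouse models.

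The label was set beside 4 defining markers. Mobp and Cldn11 encode structural proteins of the myelin sheath, Mal encodes a raft protein of compact myelin, and Mog encodes a protein of the outermost myelin surface. At least 1 UMI of Mobp was found in 42.9% of the 468 nuclei, against 1.44% of direct pathway spiny projection neurons (dSPNs, 1809 nuclei), which should lack it. The shares were 53.4% against 1.33% for Mal, 46.4% against 1.33% for Cldn11 and 58.5% against 1.66% for Mog. The median depths were 2158.5 UMIs for oligodendrocyte nuclei and 2175 for dSPNs. At least 1 UMI from a list of 16 oligodendrocyte markers was found in every one of the 468 nuclei, while 64 nuclei had no UMI of the 4 defining markers. By the same measure 78.2% of oligodendrocyte progenitors, 38.3% of astrocytes and 12.8% of dSPNs held a UMI from the list. Among the genes most enriched over every other annotated type was Ptgds, a prostaglandin D synthase, at 1394 counts per 1000000 UMIs (CPM) against 96.5 in the next type, the oligodendrocyte progenitors (polydendrocytes in the annotation). Others among them were Aspa, Cnp, Cldn11, Hapln2, Trf, Mbp, Mog, Ermn, Anln and Galnt6. The genes that set the class apart are thus those of the cell type the label names. How types were assigned is not given, and the label may rest on the same RNA. These values therefore describe the class and are no independent check of the label.

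The class was not uniform in the neuronal RNA it held. A list of 14 pan-neuronal genes summed to 0 UMIs in 96 nuclei and to a high value in most others, and only 29 nuclei lay between 50 and 200 per 10000. A limit of 100 per 10000, chosen after the values were seen, gave 147 neuron-poor and 321 neuron-rich nuclei. Nuclei over this limit were not particular to oligodendrocytes, of which they made up 68.6%. Their share was 92.7% in microglia, 44.9% in oligodendrocyte progenitors, 37.7% in astrocytes and 33.9% in endothelial nuclei. The neuron-rich nuclei of each mouse had a median of 302 to 418 pan-neuronal UMIs per 10000, not far below the 497 of dSPNs. They were also deeper, at a median of 2130.5 to 3317 UMIs, against 1281 to 1577 in neuron-poor nuclei. At least 1 UMI of Mobp was found in 33.0% of them and in 64.6% of neuron-poor nuclei, and of Mog in 49.2% and 78.9%. The 16 markers had a median of 141 to 143 UMIs per 10000 in the neuron-rich nuclei of WT mice and of 578 to 610 in their neuron-poor nuclei, while the dSPNs had a mean of 1.68. A doublet caller marked 6 oligodendrocyte nuclei, and all 6 were neuron-rich. Whether the neuron-rich nuclei are droplets with a neuron or droplets with free neuronal RNA was not tested. Genotype is therefore compared in all 468 nuclei, as annotated, and again in the neuron-poor nuclei.

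**Figure D1:**
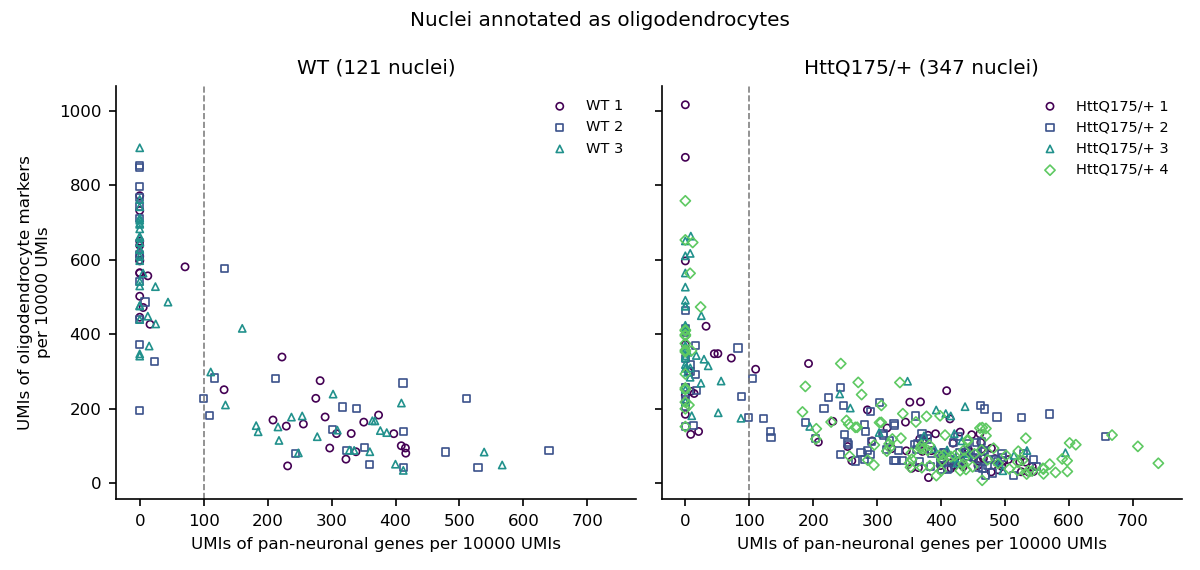
UMIs of 14 pan-neuronal genes (x axis) against UMIs of 16 oligodendrocyte markers (y axis), both per 10000 UMIs, in each oligodendrocyte nucleus of WT (121 nuclei) and HttQ175/+ (347 nuclei) mice. Few nuclei (29 of 468) lie between 50 and 200 pan-neuronal UMIs, around the dashed limit of 100, and the neuron-poor nuclei on the left carry more oligodendrocyte marker UMIs.

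The neuron-rich share differed among the mice, and 1 library stood apart. It was 57.1% (95% exact binomial interval 39.4 to 73.7), 56.2% (37.7 to 73.6) and 46.3% (32.6 to 60.4) in the WT mice. It was 78.1% (66.9 to 86.9), 83.3% (74.9 to 89.8), 38.6% (26 to 52.4) and 81.7% (73.1 to 88.4) in HttQ175/+ replicates 1 to 4. These intervals cover counting error only. HttQ175/+ replicate 3 lay below all 3 WT mice, and the other HttQ175/+ mice lay above them. The means were 53.2% ± 6.02 (SD, n = 3) and 70.4% ± 21.3 (SD, n = 4), a difference of 17.2 percentage points that was not beyond the spread over mice (exact two-sided permutation p = 0.229, adjusted p = 0.343 over 6 such tests). Without replicate 3 the difference was 27.8 points. With 35 splits of the 7 mice the smallest p this test can give is 0.0571, so none of the 6 could fall below 0.05.

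The other types' markers were looked at in the same way. The summed level of 20 spiny projection neuron (SPN) markers was 5683 to 7371 CPM in the WT mice and 3008 to 5655 CPM in the HttQ175/+ mice over all oligodendrocyte nuclei. In the neuron-poor nuclei the sum was 952 to 1407 against 305 to 1243 CPM, with 2 of the 20 markers at 0. Astrocyte markers without Glul and Apoe, which oligodendrocytes also express, summed to 440 to 983 against 587 to 859 CPM over all nuclei. In the neuron-poor nuclei the same 10 genes summed to 194, 613 and 521 CPM in the WT mice and to 1368, 2426, 745 and 2652 CPM in the HttQ175/+ mice, which do not overlap. Annotated astrocytes had 13386 to 24743 CPM of these genes. The 10 progenitor markers summed to 149 to 331 against 302 to 509 CPM over all nuclei, and the 10 microglial markers to 98.8 to 372 against 110 to 416 CPM. Where such values move with a result below, their part in it was not tested unless a value is given.

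**Figure D2:**
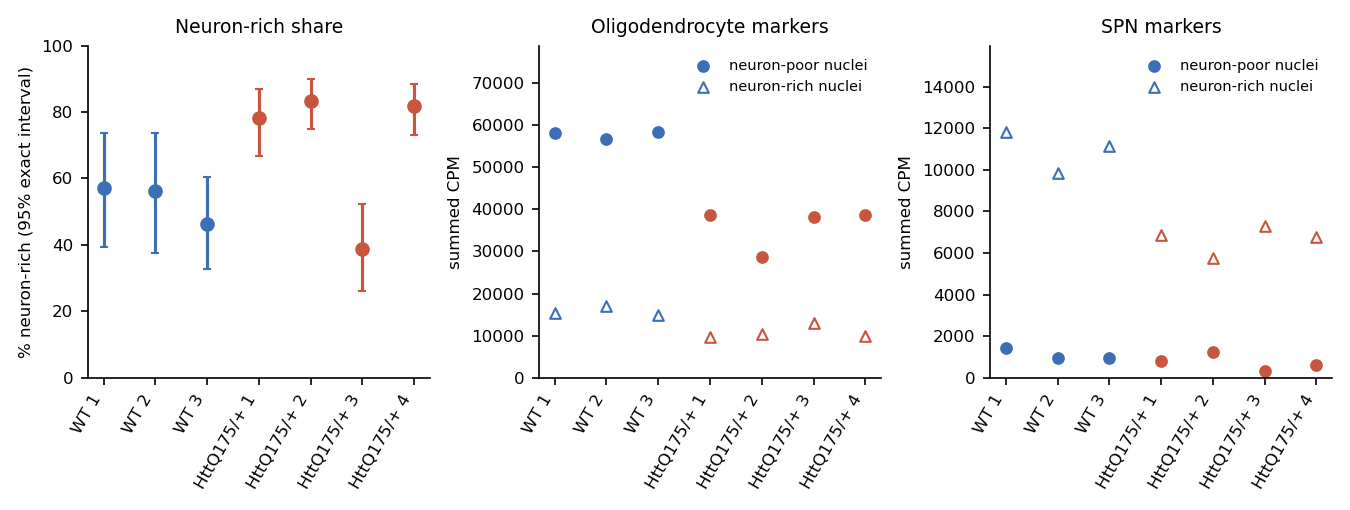
Left: share of neuron-rich nuclei (percent, with its 95% exact interval) in each mouse, where HttQ175/+ replicate 3 (38.6%) sits apart from the other HttQ175/+ mice (78.1 to 83.3%). Middle and right: summed CPM of 16 oligodendrocyte markers and of 20 SPN markers, with filled circles for neuron-poor and open triangles for neuron-rich nuclei, WT in blue and HttQ175/+ in red; the oligodendrocyte marker sum is lower in every HttQ175/+ mouse than in every WT mouse in both sets of nuclei.

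The genes that passed the test were mostly genes held by oligodendrocytes and lower in the HttQ175/+ mice. Glul, Car2, Mal, Cldn11, Mobp, Fth1, Trf, Scd2, Apoe and Ptgds all fell, by 2.21-fold to 4.81-fold. Of 3650 genes tested over all 468 nuclei with limma, 24 passed an adjusted p of 0.05 (0.658% of the genes), 20 lower (0.548%) and 4 higher (0.11%) in HttQ175/+. Of the 20 that fell, 19 had a WT level in oligodendrocytes at least as high as in any of 5 neuronal types, as had 29.0% of all tested genes (1060 of 3650). That split uses the WT level, which is 1 side of the change tested, and is a description. The fall of Scn4b and the 4 rises were of genes higher in neurons. The median log2 change of all tested genes was 0.08. The number of calls rests on single mice: it was 1 without WT replicate 1, 2 without WT replicate 2, 1 without WT replicate 3, 6, 3 and 2 without HttQ175/+ replicates 1, 2 and 4, and 108 (17 higher, 91 lower) without HttQ175/+ replicate 3, with all 24 among them. Glul passed in each of these 7 fits and Sgk1 in 5, while each of the other 22 was lost in 4 or more. None of the 24 changed sign in any of them. In all 24 the groups do not overlap, against 4.58% of all tested genes that lay below and 6.82% that lay above. Leaving out 1 mouse could therefore hardly reverse a sign, and the kept signs are a description.

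The neuron-poor nuclei gave fewer tested genes. Of 324 genes tested there, 4 passed (1.23%): Glul, Car2, Cldn11 and Ptgds, all lower in HttQ175/+, and none rose (0.0%). At an unadjusted p under 0.05 there were 58 genes. Of the 24 genes called over all nuclei, 15 could be tested in neuron-poor nuclei, and all 15, each lower over all nuclei, were lower there too. The neuron-poor nuclei are part of the 468, and 63.9% of the 324 genes were lower and 83.3% had the same sign as over all nuclei, so this is a description. The median change of all 324 genes was -0.20, so a change in these nuclei is to be read against a slightly lower background than over all nuclei. In the neuron-rich nuclei 2 of 1588 genes passed (0.126%), Scn4b with a fall and Gm26917, a noncoding RNA named here after its values were seen, with a rise of 1.77. Of the 4, Glul passed in all 7 fits that leave out 1 mouse, Car2 and Cldn11 in 2 and Ptgds in 1; the number of calls was 1 without WT replicates 1, 2 or 3 or HttQ175/+ replicates 1 or 4, and 6 without HttQ175/+ replicates 2 or 3.

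Glul showed the largest fall. It encodes glutamine synthetase, the enzyme that turns glutamate and ammonia into glutamine, best known in astrocytes and also present in a subset of oligodendrocytes. Its level over all nuclei was 1255, 1035 and 911 CPM in the WT mice and 221, 149, 303 and 195 CPM in the HttQ175/+ mice. Every HttQ175/+ mouse lay below every WT mouse, with a wide gap between the groups. The log2 change was -2.27 ± 0.29 (SE), or 4.81-fold lower (limma, adjusted p = 0.000156). In the neuron-poor nuclei the levels were 2444, 2000 and 1478 CPM against 681, 250, 420 and 573 CPM, a log2 change of -1.92 ± 0.34 (adjusted p = 0.00226). In the neuron-rich nuclei the change was -1.19 ± 0.27 (adjusted p = 0.0742). At least 1 UMI of Glul was found in 69.0% of 58 neuron-poor WT nuclei and in 31.5% of 89 neuron-poor HttQ175/+ nuclei, against 1.60% of dSPNs. After thinning every nucleus to 1131 UMIs the shares were 67.2% and 27.0%. Both readouts, the level and the share of nuclei, were lower in HttQ175/+ mice, and both shares were above that of dSPNs.

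The fall of Glul was also measured where astrocyte RNA was least. In neuron-poor nuclei with no UMI of the 10 astrocyte markers (13, 8 and 20 WT nuclei and 11, 6, 18 and 8 HttQ175/+ nuclei, a set added after the values were seen) Glul was 2628, 2054 and 1670 CPM in the WT mice and 596, 174.9, 269 and 778 CPM in the HttQ175/+ mice, a log2 change of -2.23. The 16 oligodendrocyte markers summed to 57661, 61159 and 60204 CPM against 44395, 35830, 41030 and 42105 CPM in the same nuclei. The groups do not overlap in either value. Of 184 genes tested in this set 15 passed. Of the 24 called over all nuclei 13 were tested here, of which 6 did not pass. The 7 that passed were Glul, Mobp, Car2, Ptgds, Cldn11, Fth1 and Apoe, each lower. Of these, Apoe (lowest WT mouse 1661, highest HttQ175/+ mouse 2011 CPM) and Ptgds (2067 and 2361 CPM) overlap between the groups. Glul, Mobp, Car2, Cldn11 and Fth1 do not. In annotated astrocytes Glul was 793 CPM in the WT mice and 673 CPM in HttQ175/+ mice, a change of -0.34 that did not pass (limma, adjusted p = 0.638). The change in oligodendrocytes minus that in astrocytes was -1.89 on the log2 scale, which did not pass (limma on within-mouse differences, adjusted p = 0.162).

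The sequence before the start of 3 of the fallen genes is shown as an example of genes that each fell. Mobp was also looked up, and its window is not shown because it overlaps an annotated exon. Glul lies on chromosome 1 (mm10, 153899944 to 153909723, plus strand), Mal on chromosome 2 (127633226 to 127656695, minus strand) and Cldn11 on chromosome 3 (31149920 to 31164324, plus strand). The 250 bases before RefSeq's start site, from its promoter table (GRCm38.p6), are written 5′ to 3′ on each gene's strand. These gene bounds are GENCODE's; RefSeq's start site of Glul, 153899929, lies 15 bases before GENCODE's, and those of Mal and Cldn11 are the same in both. Capitals mark CCAAT, the box bound by NF-Y, on either strand, so that ATTGG is the same box on the other strand. The windows are chr1:153899679-153899928 for Glul, chr2:127656696-127656945 for Mal and chr3:31149670-31149919 for Cldn11.
Glul: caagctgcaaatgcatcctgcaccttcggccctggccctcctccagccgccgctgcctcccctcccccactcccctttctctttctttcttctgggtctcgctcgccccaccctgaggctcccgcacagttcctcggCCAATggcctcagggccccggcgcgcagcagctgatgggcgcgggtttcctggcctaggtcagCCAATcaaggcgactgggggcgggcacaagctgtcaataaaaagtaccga
Mal: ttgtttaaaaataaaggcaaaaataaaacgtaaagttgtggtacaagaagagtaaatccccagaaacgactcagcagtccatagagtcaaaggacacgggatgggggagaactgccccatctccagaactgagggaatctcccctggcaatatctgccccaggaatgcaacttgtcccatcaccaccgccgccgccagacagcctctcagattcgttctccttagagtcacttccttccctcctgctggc
Cldn11: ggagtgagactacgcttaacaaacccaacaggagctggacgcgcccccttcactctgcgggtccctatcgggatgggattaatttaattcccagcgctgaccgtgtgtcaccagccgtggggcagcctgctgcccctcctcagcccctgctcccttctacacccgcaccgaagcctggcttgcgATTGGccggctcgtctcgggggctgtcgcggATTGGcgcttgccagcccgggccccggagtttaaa
Glul and Cldn11 each hold 2 matches in this window and Mal holds none. Of the 20 genes that fell, 13 had an entry, with 25 windows between them, and 10 of the 25 (40.0%) held CCAAT, against 33.8% of 32851 promoters. The letters ACAAAG and ACAATG on either strand, which SOX factors such as Sox10 can bind, stood in 3 of the 25 windows (12%), against 25.2% of all promoters. The windows of Glul, Mal and Cldn11 held none, and that of Mobp held 6 and no CCAAT. A match is a description of letters, not of binding, and the shares were not tested.

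Mobp, Mal, Cldn11 and Pmp22 were among the myelin protein genes that fell. Of 17 tested members of the myelin protein list 5 fell and none rose, against 0.548% and 0.11% of all tested genes. Their median log2 change was -0.94, against 0.08 for all genes. In 9 of the 17 every HttQ175/+ mouse lay below every WT mouse, which held for 4.58% of all tested genes, and 6.82% of all tested genes lay above in every HttQ175/+ mouse. In neuron-poor nuclei 1 of 15 fell, against 1.23% of all genes tested there, and the median was -0.62. Of the 15, 11 lay below without overlap, against 18.5% of all genes tested there, and 4.32% of all those genes lay above. In all 468 nuclei a lower level cannot be told apart from a smaller share of oligodendrocyte RNA in the droplets: the 14 pan-neuronal genes summed to 14453 to 19789 CPM in WT mice and 16339 to 33956 CPM in HttQ175/+ mice, and HttQ175/+ replicate 3 alone lay within the WT range.

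Cldn11 encodes the claudin that seals the myelin layers with tight junctions. It was 1147, 1075 and 1108 CPM in the WT mice and 398, 241, 711 and 355 CPM in HttQ175/+ mice over all nuclei (log2 change -1.47 ± 0.31, limma, adjusted p = 0.0227). In neuron-poor nuclei it was 2263, 1963 and 1764 against 844, 283, 940 and 851 CPM, with a fall of about the same size (-1.46 ± 0.36, adjusted p = 0.0393). In neuron-rich nuclei the change was -0.29 (adjusted p = 0.633). The difference between the neuron-poor and neuron-rich changes was not tested.

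Mal, whose product carries lipid rafts into compact myelin, was 1405, 2151 and 2379 CPM in the WT mice and 594, 589, 988 and 652 CPM in HttQ175/+ mice, with a clear gap between the groups (-1.49 ± 0.28, limma, adjusted p = 0.0129). In neuron-poor nuclei the change was -1.07 ± 0.30 (adjusted p = 0.0568). Mobp was 1530, 1139 and 1787 CPM against 435, 285, 1026 and 448 CPM, with HttQ175/+ replicate 3 close to the lowest WT mouse (-1.57 ± 0.34, adjusted p = 0.0259, and -1.27 ± 0.36, adjusted p = 0.0568, in neuron-poor nuclei). Pmp22, a small membrane protein of myelin, fell too (-1.42 ± 0.32, adjusted p = 0.0354).

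Other myelin genes did not pass, and they spread widely. Mbp, the basic protein that holds the inner membrane faces together, was 5297, 5032 and 5014 CPM in the WT mice and 3088, 2699, 5242 and 2748 CPM in HttQ175/+ mice. HttQ175/+ replicate 3 lay within the WT mice and the other 3 well below (log2 change -0.65 ± 0.25, limma, adjusted p = 0.239). In neuron-poor nuclei the change was -0.34 ± 0.24 (adjusted p = 0.462). Mag, an adhesion protein facing the axon, was 2851, 2289 and 2729 CPM against 2942, 1682, 2939 and 2792 CPM in neuron-poor nuclei, a change of -0.04 ± 0.30 (adjusted p = 0.957). The Mag groups overlap entirely there, while those of Cldn11 do not overlap in the same nuclei. Cnp (-1.14, adjusted p = 0.0873), Mog (-0.79, adjusted p = 0.221) and Opalin (-0.18, adjusted p = 0.88) did not pass over all nuclei.

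**Figure D3:**
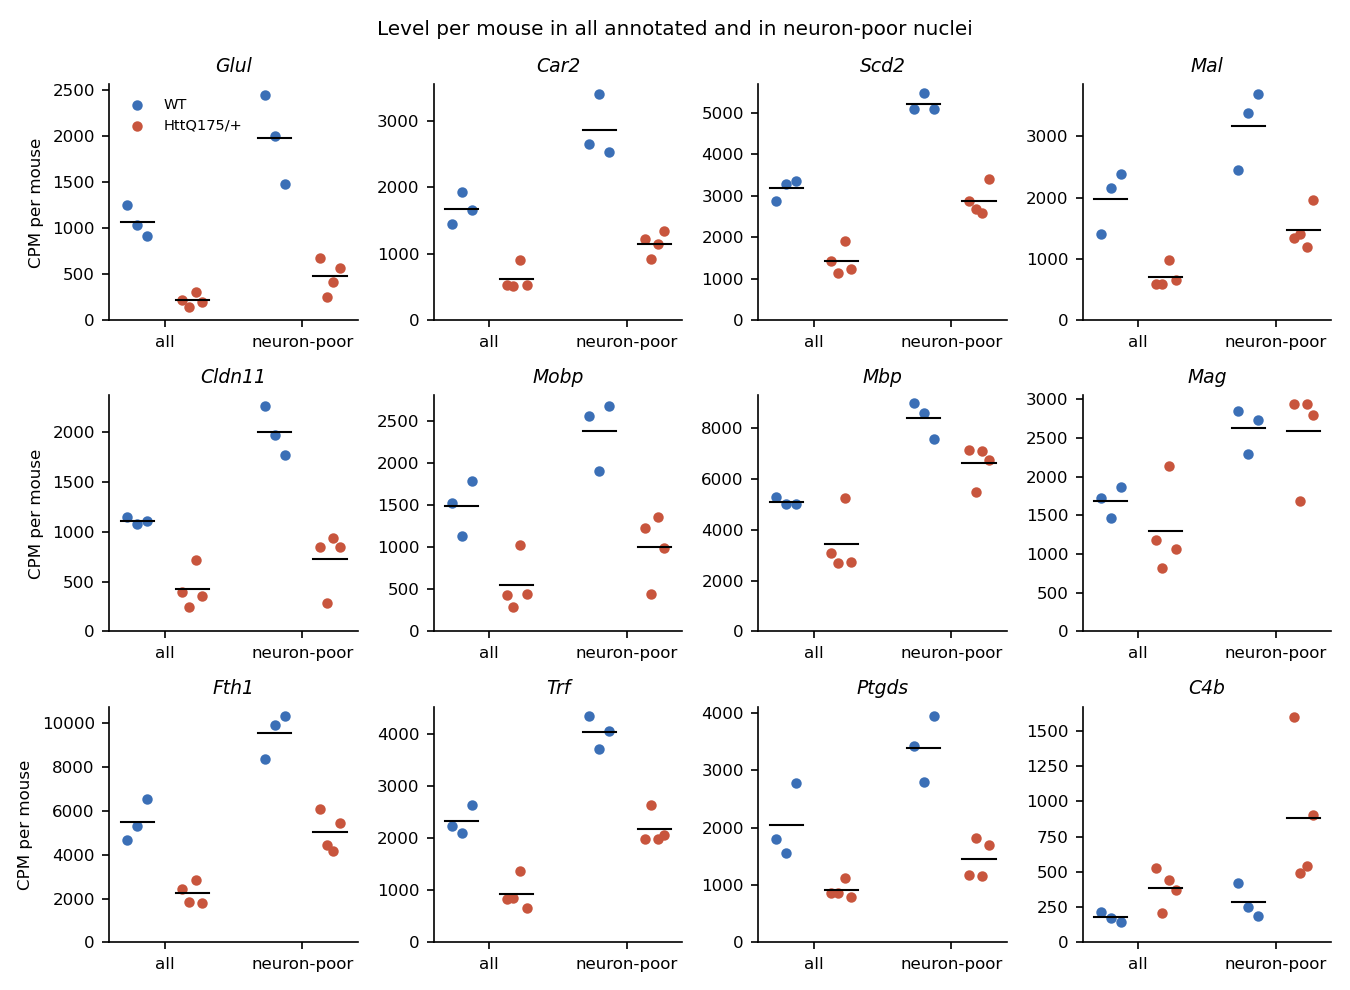
CPM of 12 genes in each mouse (points; blue WT, red HttQ175/+), over all oligodendrocyte nuclei and over neuron-poor nuclei, with lines at the group means. Glul, Car2, Scd2, Mal, Cldn11 and Mobp do not overlap between the groups in either set, Mag overlaps in both, and C4b is higher in every HttQ175/+ mouse in neuron-poor nuclei.

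The transcription factors that drive myelin genes gave no call. Of 20 listed, 14 were tested, none passed, and the median change was -0.09. Their summed level in neuron-poor nuclei was 5407 to 6308 CPM in the WT mice and 5287 to 6144 CPM in HttQ175/+ mice, which overlap. Sox10, the master regulator of the lineage, had a change of -0.98 ± 0.34 over all nuclei (limma, adjusted p = 0.188) and -0.58 ± 0.46 in neuron-poor nuclei (adjusted p = 0.511). Myrf, which switches on myelin genes at the end of maturation, had -0.57 ± 0.30 (adjusted p = 0.41). Olig1 was at 511, 547 and 441 CPM in the WT mice and 689, 659, 686 and 758 CPM in HttQ175/+ mice in neuron-poor nuclei, with every HttQ175/+ mouse above, but the change of 0.44 ± 0.31 did not pass (adjusted p = 0.462). Genes of immature, newly formed oligodendrocytes (Bcas1, Enpp6, Fyn and others) were at a median change of 0.00 over 7 tested members, none of which passed. Of all tested genes 0.658% passed, so the absence of a call among these 14 and 7 genes is no result about them.

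Car2 and other genes of mature subtypes fell. Car2 encodes carbonic anhydrase 2, an enzyme of acid and bicarbonate balance that is typical of oligodendrocytes. It was 1446, 1934 and 1654 CPM in the WT mice and 532, 520.2, 911 and 526 CPM in HttQ175/+ mice over all nuclei (log2 change -1.46 ± 0.27, limma, adjusted p = 0.0129). In neuron-poor nuclei it was 2645, 3402 and 2529 against 1220, 923, 1142 and 1337 CPM (-1.25 ± 0.28, adjusted p = 0.0318). The lowest WT mouse was well above the highest HttQ175/+ mouse in both sets of nuclei. Car2 was found in 87.9% of neuron-poor WT and 60.7% of neuron-poor HttQ175/+ nuclei (87.9% and 55.1% after thinning), against 3.70% of dSPNs.

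Ptgds makes prostaglandin D and marks one of the mature subtypes. It was 3413, 2794 and 3949 CPM in the WT mice and 1166, 1821, 1150 and 1698 CPM in HttQ175/+ mice in neuron-poor nuclei (-1.19 ± 0.29, limma, adjusted p = 0.0393), and -1.14 ± 0.27 over all nuclei (adjusted p = 0.0485). In neuron-rich nuclei its change was -0.02. The share of neuron-poor nuclei with a UMI of Ptgds, pooled over mice, was 58.6% in WT and 53.9% in HttQ175/+. By mouse it was 53.3, 57.1 and 62.1% in WT and 68.8, 66.7, 45.7 and 45.0% in HttQ175/+ replicates 1 to 4. The HttQ175/+ mice thus lay on both sides of the WT mice, and the shares were not tested.

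Sgk1, a kinase induced by glucocorticoids, was 523, 257 and 370 CPM in the WT mice and 92.5, 94.8, 62.3 and 106 CPM in HttQ175/+ mice over all nuclei (-1.92 ± 0.31, limma, adjusted p = 0.00411). In neuron-poor nuclei the change was -2.03 ± 0.61 (adjusted p = 0.0646). Of the neuron-poor nuclei, 48.3% of those from WT mice and 11.2% of those from HttQ175/+ mice held a UMI of Sgk1. Among dSPNs, which are deeper, 14.9% held one, so the WT share lay above theirs and the HttQ175/+ share below. The mean Sgk1 level of dSPNs was 67.1 CPM (WT) and 77.5 CPM (HttQ175/+). The levels of HttQ175/+ oligodendrocytes over all nuclei, 62.3 to 106 CPM, lay on both sides of the latter. How much of the Sgk1 RNA counted here came from neurons was not tested. Of the 17 tested genes of mature subtypes 4 fell (Sgk1, Car2, Pmp22 and Ptgds) and none rose, with a median of -0.31, against 0.548% of all tested genes that fell and their median of 0.08.

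Klk6, a protease of another mature subtype, was too low to be tested: 24 UMIs in WT and 12 in HttQ175/+ mice. It was found in 10 of 58 neuron-poor WT nuclei (17.2%) and 6 of 89 neuron-poor HttQ175/+ nuclei (6.74%), against 0.276% of dSPNs. Thinned to equal depth the shares were 15.5% and 3.37%, which is 9 and 3 nuclei. Opalin, pooled over mice, went the other way, at 37.9% and 50.6%. By mouse the Opalin shares were 26.7, 57.1 and 34.5% in WT and 31.25, 72.2, 51.4 and 45.0% in HttQ175/+ mice, which overlap. Among the 147 neuron-poor nuclei 16 held Klk6 and 67 held Opalin, and 3 held both, where the product of the shares gives 7.29. Ptgds and Opalin were found together in 49 nuclei, where the product gives 37.4. These counts come from nuclei of 7 mice and have no test.

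Of the genes of iron handling, Fth1 and Trf fell. Fth1 encodes the heavy chain of ferritin, which stores iron, and Trf encodes transferrin, which carries it. Fth1 was 4692, 5296 and 6550 CPM in the WT mice and 2444, 1851, 2863 and 1786 CPM in HttQ175/+ mice (log2 change -1.33 ± 0.25, limma, adjusted p = 0.0129). Trf was 2243, 2099 and 2636 CPM against 826, 857, 1375 and 669 CPM (-1.37 ± 0.27, adjusted p = 0.0167). Neither gene overlaps between the groups, and in neuron-poor nuclei both changes, -0.92 and -0.88, missed the threshold (adjusted p = 0.0568 and 0.0646). The other tested genes of the list, Ftl1 (the ferritin light chain), Tfrc (the transferrin receptor) and Ireb2 (an iron sensor), had changes of 0.01, 0.10 and 0.66 and did not pass. Of 5 tested iron genes 2 fell, against 0.548% of all tested genes, and the median was 0.01.

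Of the lipid genes 1 fell. Scd2, which makes unsaturated fatty acids for membranes, was 2874, 3296 and 3372 CPM in the WT mice and 1424, 1145, 1921 and 1229 CPM in HttQ175/+ mice (-1.19 ± 0.25, limma, adjusted p = 0.0227). It was the 1 member of 20 tested fatty acid and sphingolipid genes that passed, against 0.658% of all tested genes. The median of the 20 was -0.57. In neuron-poor nuclei all 7 tested members had a negative change (median -0.79), and in 6 of them the groups do not overlap, against 18.5% of all genes there. These include Ugt8a, which makes the myelin lipid galactosylceramide (-1.04, adjusted p = 0.162), and Aspa, which frees acetate for lipid synthesis (-1.02, adjusted p = 0.105). The group of cholesterol synthesis could hardly be read: 2 of 24 members were tested, and neither passed. Apoe, which carries lipids, fell over all nuclei (-1.37 ± 0.27, adjusted p = 0.0148) and was at -0.92 in neuron-poor nuclei (adjusted p = 0.109). In annotated astrocytes Apoe was 7822 CPM in the WT mice and 7055 CPM in HttQ175/+ mice.

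Genes that link the myelin to the axon and that move ions showed no called change. Of 23 tested genes of the paranode and of axon contact none passed, with a median of -0.20. Of 17 tested channel and gap junction genes none passed either, with a median of -0.56, and 4 lay below without overlap, against 4.58% of all tested genes. Their summed level was lower in every HttQ175/+ mouse than in every WT mouse, at 5188 to 5476 CPM in WT and 3165 to 5019 CPM in HttQ175/+ mice over all nuclei, and at 7397 to 7893 against 4499 to 6288 CPM in neuron-poor nuclei. So were 11 of 33 list sums over all nuclei and 7 of 33 in neuron-poor nuclei, this list included. Among 31 tested genes of the cytoskeleton and of mRNA transport none passed (median -0.28). The 5 tested genes of energy supply to axons stood at a median of -0.02. Since 0.658% of all tested genes passed, the absence of calls in these groups is no result about them.

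Stress and disease groups were mixed. Cryab, a small heat shock protein abundant in oligodendrocytes, fell (-1.24 ± 0.29, limma, adjusted p = 0.0473), the 1 call among 10 tested heat shock genes, whose median was -0.65. Among 7 tested genes of disease-associated oligodendrocytes none rose and Sgk1 and Apoe fell. Of all tested genes 0.548% fell and 0.11% rose, so the absence of a rise among 7 genes is no result about them. C4b, a complement component and the best known of that list, was 217, 176 and 148 CPM in the WT mice and 528, 209, 445 and 370 CPM in HttQ175/+ mice over all nuclei (0.96 ± 0.32, adjusted p = 0.168). In neuron-poor nuclei it was 425, 254 and 190.1 CPM against 1600, 494, 541 and 902 CPM. The groups do not overlap and HttQ175/+ replicate 1 is highest, but the change of 1.32 ± 0.38 did not pass (adjusted p = 0.0583). Astrocytes had 328 CPM of C4b in WT and 498 CPM in HttQ175/+ mice, and astrocyte markers were also higher in the neuron-poor HttQ175/+ nuclei. In the neuron-poor nuclei with no astrocyte marker UMI C4b was 490, 163 and 127 CPM against 2069, 833, 518 and 772 CPM. The highest WT mouse (490 CPM) and the lowest HttQ175/+ mouse (518 CPM) lay close together, from 6 to 20 nuclei per mouse. The part of astrocyte RNA in the C4b level was not tested. The interferon list had 1 tested member, Ifi27 (0.39), and the sum of its 17 genes was higher in every HttQ175/+ mouse, at 196 to 269 CPM in WT and 295 to 366 CPM in HttQ175/+ mice over all nuclei, and at 173 to 377 against 388 to 686 CPM in neuron-poor nuclei.

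The remaining groups held no call, which is no result about them, since 0.658% of all tested genes passed. None of 4 tested genes of the integrated stress response (median -0.51), 15 of oxidative phosphorylation (-0.24), 8 encoded by the mitochondrion (-0.61), 13 of Polycomb complexes (0.26), 4 of thiamine and biotin use (-0.01), 5 of diacylglycerol and protein kinase C signalling (0.26) or 9 nuclear long noncoding RNAs (0.74) passed, and neither did any of 51 ribosomal protein genes (-0.20). The 3 tested genes of the DNA repair list, which modify the age of onset in patients, or are Htt itself, stood at 0.08 to 0.47 and did not pass. Of the developmental transcription factors 1 was tested, Onecut2 (0.92). The sum of all 17 was higher in every HttQ175/+ mouse than in every WT mouse, at 304, 222 and 137 CPM in the WT mice and 544, 506, 391 and 440 CPM in HttQ175/+ mice over all nuclei, and at 53.7, 74.6 and 21.2 against 234, 91.7, 204 and 89.0 CPM in neuron-poor nuclei. The Polycomb sum (1416 to 1655 against 1859 to 2038 CPM) and the DNA repair sum (502 to 562 against 606 to 719 CPM) did not overlap over all nuclei and did in neuron-poor nuclei. Of 33 list sums 4 were higher and 11 lower in every HttQ175/+ mouse over all nuclei, and 2 were higher and 7 lower in neuron-poor nuclei. These sums were not tested. Htt was 221, 114 and 126 CPM in the WT mice and 158, 157, 166 and 155 CPM in HttQ175/+ mice, a change of 0.08 ± 0.30 (limma, adjusted p = 0.949). This count holds the RNA of both alleles. Meg3 and Snhg11, long noncoding RNAs of neurons, were high in HttQ175/+ replicates 1, 2 and 4 and lower in replicate 3 (Meg3 at 19341, 18639, 9507 and 20844 CPM in replicates 1 to 4), as the neuron-rich share was; their changes of 0.71 and 0.74 did not pass.

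**Figure D4:**
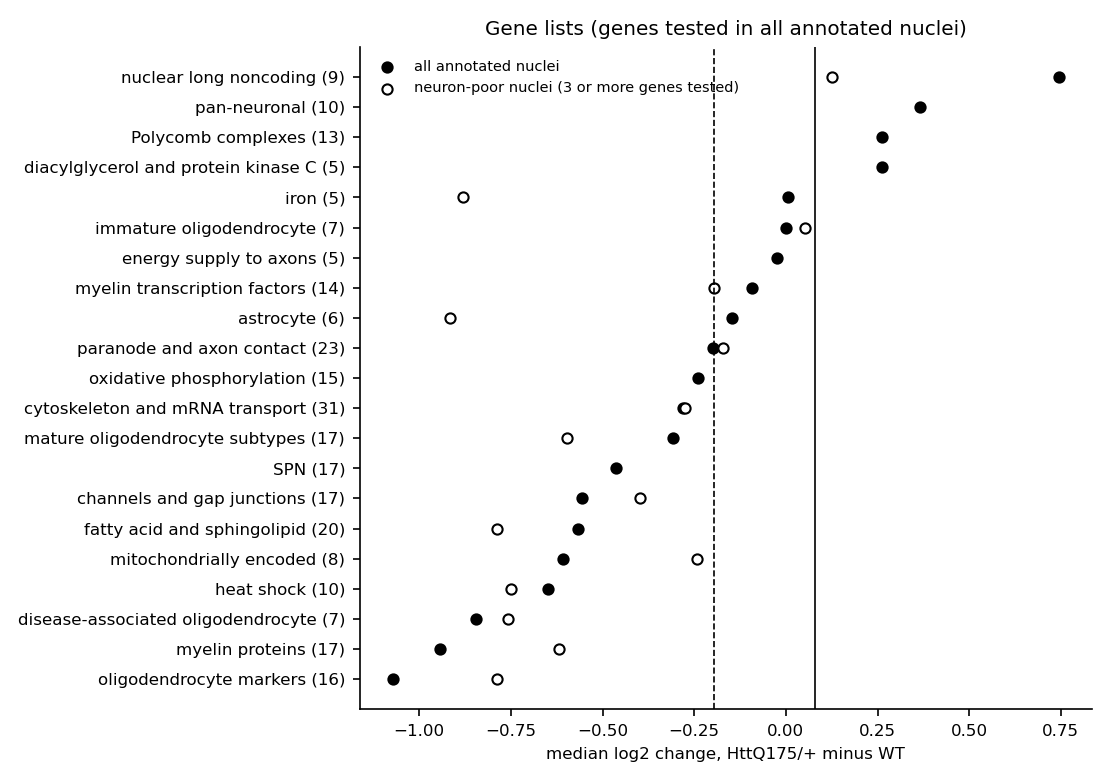
Median log2 change (HttQ175/+ minus WT, x axis) of each gene list with 5 or more tested members, filled for all oligodendrocyte nuclei and open for neuron-poor nuclei, with the solid line at the median of all tested genes (0.08) and the dashed line at that of neuron-poor nuclei (-0.20). The oligodendrocyte marker list is lowest in all nuclei at -1.07, and the myelin transcription factors stand near the lines.

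Neuronal genes in the class moved as follows. Scn4b, a sodium channel subunit of spiny projection neurons, was 245, 318 and 166 CPM in the WT mice and 87.9, 85.5, 50.2 and 84.2 CPM in HttQ175/+ mice (-1.49 ± 0.31, limma, adjusted p = 0.0227). In neuron-rich nuclei it fell by 1.66 ± 0.26 (adjusted p = 0.00596), and in dSPNs it was 548 CPM in the WT mice and 151 CPM in HttQ175/+ mice. It was the 1 call among 17 tested SPN markers, against 0.658% of all tested genes. The median of the 17 was -0.46. In neuron-poor nuclei Scn4b was at 0 in 1 WT and 2 HttQ175/+ mice. The 4 genes that rose, Cdk17 (1.79), Smarcd1 (1.58), Sptbn4 (1.37) and Mpped2 (1.34), were low in WT: Cdk17 rested on 7 UMIs in WT against 111 in HttQ175/+ mice. Their way into the test led through the group in which they are high, since the minimum of 75.3 CPM in 3 mice was reached by all 4 HttQ175/+ mice but by no WT mouse for Cdk17 and Smarcd1, 1 for Sptbn4 and 2 for Mpped2. Of the genes that fell, Rhog, Pmp22 and Mettl7a1 reached it in all 3 WT mice and in 1 HttQ175/+ mouse. On simulated data of this comparison, false calls were more frequent than the threshold sets, and most of them were rises. The simulation drew a count per gene and mouse from a common profile with an assumed spread. It held no separate nuclei and no differences in neuronal RNA among mice, so its rate of false calls need not be that of these data. All 4 lost the call when every gene with 1 UMI was tested, and 3 of them when a mean of 50 CPM was asked for. Of all 24 calls, 22 were lost in the first of these settings and 11 in the second, so falls were lost in both as well. Sptbn4 was at 0 in the neuron-poor nuclei of all 7 mice. The SPN marker sum was 6335 ± 908 CPM in the WT mice and 4802 ± 1230 CPM in HttQ175/+ mice (exact two-sided permutation p = 0.0571, adjusted p = 0.343). The difference of -1533 CPM was -935 CPM without HttQ175/+ replicate 3 and -1014 CPM without WT replicate 1.

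The changes were next compared with those of 2 other types, within each mouse. Against astrocytes, the glial type with most nuclei after oligodendrocytes, 1 of 4016 genes passed (0.0249%): Rpl5, a ribosomal protein gene, with a difference of -3.19 (limma, adjusted p = 0.00681), whose level in WT astrocytes was 0. Against dSPNs 0 of 9000 genes passed (0.0%), with 946 at an unadjusted p under 0.05 and a lowest adjusted p of 0.154; Glul was among the lowest, with a difference of -2.44. Car2 differed from astrocytes by -1.75 (adjusted p = 0.28), Fth1 by -2.12 (adjusted p = 0.259) and Mal by -2.06 (adjusted p = 0.318). So, apart from Rpl5, no gene named here was shown to change differently in oligodendrocytes than in these 2 types. Astrocytes on their own gave 0 calls of 1873 genes, with 250 at an unadjusted p under 0.05.

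The share and depth of oligodendrocyte nuclei were not shown to differ beyond the spread over mice. These exact permutation tests cannot give a p under 0.0571. The numbers of nuclei, 35, 32 and 54 in WT and 73, 108, 57 and 109 in HttQ175/+ mice, do not overlap and were not tested. Oligodendrocyte nuclei made up 9.17% ± 0.70 (SD, n = 3) of the nuclei of WT and 11.5% ± 3.29 (SD, n = 4) of those of HttQ175/+ mice (exact two-sided permutation p = 0.457, adjusted p = 0.549). The difference of 2.29 percentage points was 0.934 without HttQ175/+ replicate 4. Of the glial nuclei they were 45.4% ± 7.89 and 52.7% ± 6.51 (exact permutation p = 0.229, adjusted p = 0.343). That difference of 7.25 points was 3.77 without WT replicate 1, 11.5 without WT replicate 3 and 4.74 without HttQ175/+ replicate 4. The median depth was 2097 ± 316 and 2137 ± 421 UMIs (exact permutation p = 0.857, adjusted p = 0.857). Shares of nuclei depend on which nuclei the isolation and the study's filters kept, and do not count cells in the tissue.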

How the data were processed

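Nuclei were isolated from frozen striatum, 1 library per mouse, with the Chromium 3′ kit and version 3 chemistry, per the labels' protocols. Cell Ranger 3.0.2, Seurat and genome build mm10 are named in the submitters' processing notes. How nuclei were filtered, how types were assigned and whether strand was used are not given in these sources, and reads of a gene and an antisense partner cannot be told apart. The deposited values are natural log values (ln), as the authors made them, of UMIs scaled to 10000 per nucleus with 1 added first: the linear values sum to 10000 in each nucleus, and 100% of 5824756 values above 0 gave whole UMIs within 0.02. Cell types and genotypes come from the authors' deposited annotation, which matched the labels for all 4524 nuclei. A smoothed table was not used. Of the barcodes, 3 occurred in more than 1 library, 2 of them with an oligodendrocyte nucleus.

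Mean linear values per mouse gave CPM, printed unscaled. For the tests they were scaled by trimmed means of M values (factors 0.940 to 1.035), and limma 3.58.1 (R 4.3.3, trend, robust off) was run on log2(CPM + 15.1), the pseudocount being worth 2 UMIs of the median mouse, so that fold changes of low genes are understated. Genes needed 15 UMIs in all and 75.3 CPM (10 UMIs at the median depth) in at least 3 mice. In neuron-poor nuclei the pseudocount was 73.2 CPM and the minimum 366 CPM. P-values were adjusted by Benjamini-Hochberg over all genes tested, with a threshold of 0.05; every adjusted p of a gene is from limma. Because the values are not counts as deposited, no count model was used. Single values per mouse were compared by exact permutation (scipy 1.17.1). The mice are the replicates, and the labels say nothing on litters or days of preparation. Doublets were called with Scrublet in scanpy 1.11.5, which marked 60 nuclei (1.33%), and were kept in the reported values. The scripts were tested on simulated data.

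The members, gene lists and tests were chosen with earlier results of these data known, so no list is independent evidence. Named genes were the called genes, split by whether oligodendrocytes or neurons held the higher WT level and ranked by change, called list members, the most abundant myelin, transcription factor and immature genes, Htt, and the most abundant and most enriched genes. Others (C4b, Klk6, Sgk1's shares, Olig1 in neuron-poor nuclei and the non-passing lipid, iron and marker genes) were chosen after their values were seen. Alternatives covered scaling, pseudocount, filters, UMI sums, weights, doublets, neuronal RNA, depth and each mouse left out. Some of the genes this rule names are not reported here.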

Additional observations from a re-analysis of the deposited data

Results flagged for a closer look

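Among the 4 HttQ175/+ mice a value was singled out when its gap to the next was large against the group's whole range, by Dixon's 95% limit; this picks about 1 group in 20 by chance, and it picked 8 of the 38 groups checked. The groups come from the same 4 mice and are not independent, so this count is no measure of an excess over chance. HttQ175/+ replicate 3 accounts for 7 of the 8. Its neuron-rich share was 38.6%, its pan-neuronal sum was 16340 CPM, and its SPN marker sum was 30.23% of that in its own SPN nuclei, all below the other HttQ175/+ mice. Its levels of Mal (988.3 CPM), Car2 (910.7 CPM) and Rhog (128.3 CPM) were the highest among HttQ175/+ mice over all nuclei, and its level of Scn4b (50.22 CPM) was the lowest. In neuron-poor nuclei its Mal (1201 CPM) and Car2 (1142 CPM) lay within the range of the other HttQ175/+ mice or below it. HttQ175/+ replicate 2 stood apart for the 16 oligodendrocyte markers in neuron-poor nuclei, at 28700 CPM, against 38076 to 38658 CPM in the other HttQ175/+ mice. Rpl5 changed differently in oligodendrocytes and astrocytes (difference -3.188 on the log2 scale, limma, adjusted p = 0.00681); it was 100.03, 155 and 103 CPM in oligodendrocytes of the WT mice, 0 CPM in WT astrocytes and 69.1 CPM in HttQ175/+ astrocytes, so the difference rests on a gene that was not detected in 1 group.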

How the results depend on the processing

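The 24 calls over all nuclei were 21 without scaling, 29 with scaling by the median of ratios, 19 and 29 with a pseudocount worth 1 and 5 UMIs, 25 with a robust fit, 21 without doublets and 24 at equal depth, 14 of them shared. They were 2 with no filter on low genes, 13 with a mean of 50 CPM, 13 from summed UMIs and 112 (29 higher, 83 lower) with weights for each mouse. They were 12 (7 higher, 5 lower) in nuclei with at most 2 SPN marker UMIs and 1, Glul, after the neurons' profile was subtracted. Of the alternatives added after the data were seen, neuron-poor nuclei gave 4, neuron-rich nuclei 2, nuclei with no mitochondrial UMI 1, neuron-poor nuclei by limits of 50 and 200 gave 4 and 2, and those with no astrocyte marker UMI 15. Several of these sets hold fewer nuclei and fewer testable genes. Leaving out 1 mouse gave 1 to 108 calls. In neuron-poor nuclei the 4 calls were 15 without scaling, 12 with a pseudocount worth 5 UMIs and 1 to 6 without 1 mouse. The difference from astrocytes gave 5 calls with that pseudocount and 0 to 4 without 1 mouse, and the difference from dSPNs gave 2 with that pseudocount. The cause of these moves was not tested. The difference in median UMIs was -161 to 223 without 1 mouse. Without 1 mouse the genotype difference was 0.934 to 3.21 percentage points for the oligodendrocyte share of all nuclei, 3.77 to 11.5 for that of glial nuclei, 12.9 to 27.8 for the neuron-rich share and -1859 to -935 CPM for the SPN marker sum. These moves were within 1 SD over the mice of the group with the larger spread, and no called gene changed sign in any setting in which it was tested. The groups do not overlap over all nuclei in any of the 24 called genes, so the kept signs are a description. Glul passed in each of these alternatives to the fit over all oligodendrocyte nuclei except that of neuron-rich nuclei alone. No paired analysis was possible because the labels give the mice no shared numbers. Depth limits the neuron-poor nuclei: 15, 14 and 29 WT and 16, 18, 35 and 20 HttQ175/+ nuclei allowed 324 genes to be tested, so genes not listed as fallen there may have been too low to read.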
